A study of Mus musculus with 16 samples.

Results

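The data described here come from the toxic injury experiment of a mouse liver series, in which liver taken 3 days after carbon tetrachloride (CCl4) was compared with liver taken 3 days after olive oil. All samples whose label names either injection were used, which gave 6 of the 16 samples of the series, 3 per group. The mice were wild-type C57BL/6J males. Each mouse was injected intraperitoneally with a weight-adjusted volume (2 µL for each gram), either of olive oil or of CCl4 and olive oil mixed in equal volumes. The vehicle was therefore common to both groups. RNA came from snap-frozen whole liver, and messenger RNA libraries were sequenced on Illumina chemistry. Ages, the time of day of collection and whether each library came from a separate animal are not stated in the labels, and p-values therefore measure only the spread between these samples. Genes that belong to lists of cell division, lipid metabolism or hepatocyte zonation are mostly passed over, and the account below covers other functions.

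CCl4 is a solvent that cytochrome P450 enzymes of hepatocytes convert to a reactive radical, which destroys the hepatocytes around the central veins. The dead tissue is cleared by macrophages that enter from the blood, hepatic stellate cells lay down a provisional matrix, and the surviving hepatocytes divide until the mass is restored. In that interval hepatocytes are known to remodel their cytoskeleton and to lower many of the metabolic functions of the resting organ.

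Total counts per library ran from 4738196 to 6218526 with CCl4 and from 4295169 to 5221957 with olive oil. A count of 3 in 1 library corresponded to 0.377 to 0.781 CPM, the count scaled to a common library size by the trimmed mean of M values. Values near that level are close to the limit of detection. CCl4 replicate 1 stood apart from the other CCl4 libraries. Chi-square per degree of freedom over genes was 71.7 and 72.3 between it and CCl4 replicates 2 and 3, against 8.97 between those 2 and 11.1 to 23.8 among the olive oil libraries. The first principal component separated the treatments and held 82.0% of the variance, and the second, with 11.2%, separated CCl4 replicate 1. Results that depend on that library are given with and without it. Liver identity was plain in each library: 12 defining hepatocyte transcripts summed to 115320 to 168700 CPM with CCl4 and 129780 to 139190 CPM with olive oil. The second index of the library barcode was the same within each treatment and different between them, so an effect of that index and of the treatment cannot be told apart.

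Of 11337 genes tested, 1279 rose with CCl4 (11.3%) and 1320 fell (11.6%), at a Benjamini-Hochberg adjusted p under 0.05 in edgeR's quasi-likelihood test. The 3 values of one group lay wholly above or below those of the other for 4721 genes (41.6%), and for 2586 of the 2599 called genes. The median log2 fold change of all genes tested was 0.006. Outside the division, lipid and zonation lists 1035 genes rose and 1151 fell. Scaling by library size alone moved the median to 0.46 and gave 2973 risen and 423 fallen genes. Falls below are therefore relative to the trimmed-mean scaling, and the falls under library size are given beside the lists of falls. More members rose under that scaling in most lists. The risen members then numbered 12 junction genes, 11 integrins, 10 cell death regulators, 22 interferon-stimulated, 13 debris receptor and 24 lysosomal genes. They numbered 14 nucleotide synthesis, 12 carbohydrate, 10 heme and iron, 14 NRF2 and antioxidant, 17 ER stress and 14 TGF-beta family genes. The counts with all libraries and trimmed-mean scaling stand below. Leaving out CCl4 replicate 1 raised the counts to 1677 and 1836, or 14.3% and 15.6% of the genes then tested. Leaving out any other library lowered the shares to between 5.98% and 8.33% risen and between 6.67% and 8.69% fallen, with fewer samples in the test. Values below are CPM in replicates 1, 2 and 3 of a group, changes are log2 fold changes ± SE (n = 3 per group), and a gene is said to have risen or fallen only where it passed the test. Counts of list members are to be read against the 11.3% and 11.6% above. A list is described without a test of its own.

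**Figure D1:**
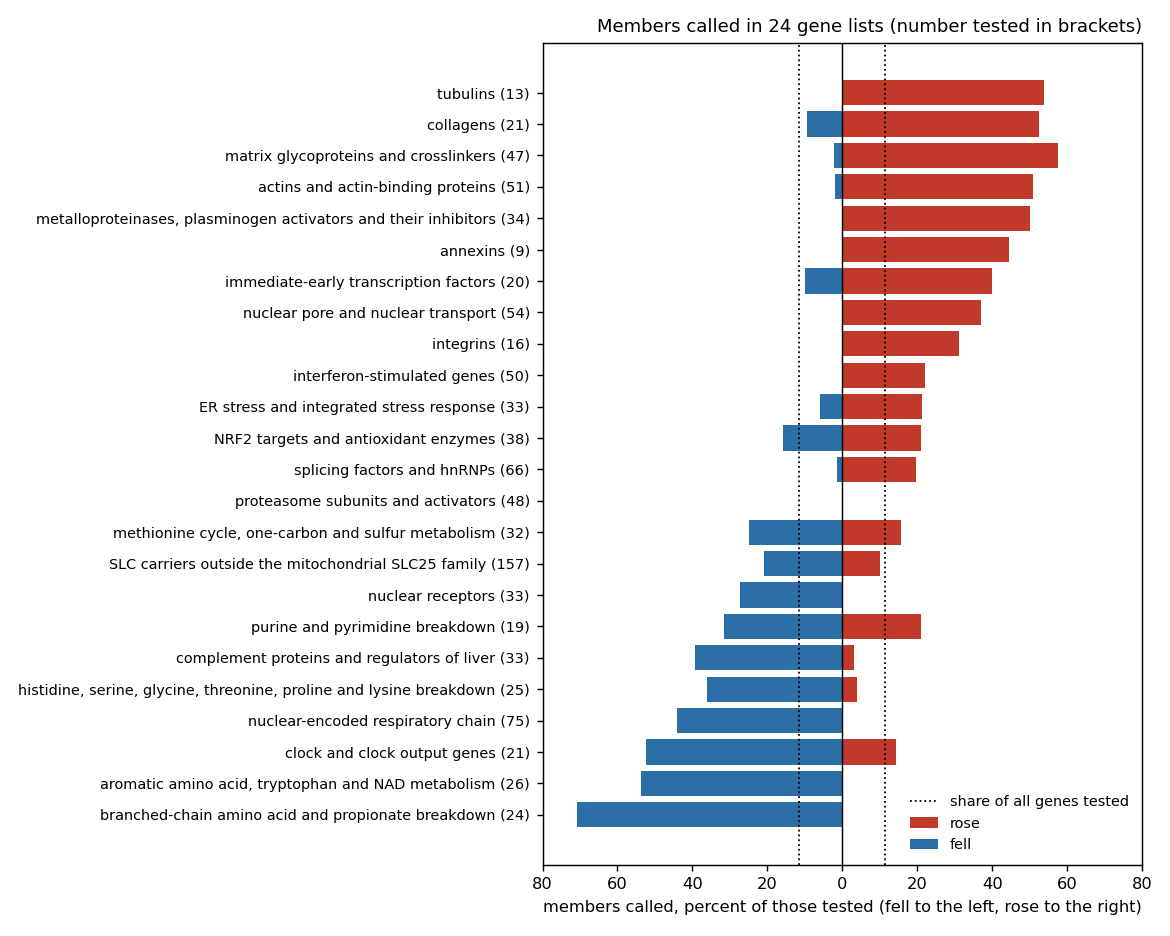
Percent of tested members that rose (right) or fell (left) with CCl4 in 24 functional gene lists, with dotted lines at the 11.3% and 11.6% of all genes tested. Cytoskeletal, matrix and protease lists extend far to the rising side, and lists of amino acid breakdown, clock and complement genes to the falling side.

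Cytoskeletal genes were among the clearest rises, with 7 of 13 tubulins, 26 of 51 actin-binding proteins, 4 of 9 annexins and both tested keratins higher in CCl4 livers. Their median changes were 1.23, 0.94, 0.68 and 1.18. Anxa2, a calcium-dependent protein that links membranes to actin (ENSMUSG00000032231, chromosome 9, 69453620 to 69491795, plus strand, GRCm38), was at 72.6, 97.4 and 72.5 CPM with CCl4 and 9.11, 9.04 and 6.34 CPM with olive oil. Each CCl4 liver was several times above the highest olive oil liver, a change of 3.31 ± 0.21 (adjusted p = 2.2e-05). Its usual partner S100a10 went from 47.1, 57.2 and 42.6 CPM to 96.8, 114 and 120.4 CPM (1.17 ± 0.16, adjusted p = 0.00071), without overlap. Tagln2, an actin-bundling relative of transgelin (ENSMUSG00000026547, chromosome 1, 172500047 to 172507380, plus strand), was nearly the same in the 3 CCl4 livers, at 96.8, 92.2 and 86.5 CPM, and was 12.2, 12.7 and 8.53 CPM in controls (3.04 ± 0.18, adjusted p = 1.8e-05). Actin filaments are also shaped by tropomyosins and by the membrane linker moesin. Tpm4 rose by 1.68 ± 0.17 (adjusted p = 0.00014) and Msn, moesin, by 1.37 ± 0.17 (adjusted p = 0.00045). The most abundant of the risen members was Actb, the cytoplasmic beta-actin, at 566 ± 23.3 CPM against 283 ± 38.4 CPM (mean ± SD). Anxa5, known for binding phosphatidylserine, rose by 1.64 ± 0.17 (adjusted p = 0.00017). The falls among calcium-binding S100 proteins were led by S100a1, at 38.3, 37.6 and 37.3 CPM against 81.7, 77.3 and 97.7 CPM (-1.18 ± 0.14, adjusted p = 0.00038). Anxa1 and Anxa4 completed the risen annexins, with changes of 2.73 ± 0.45 (adjusted p = 0.002) and 0.68 ± 0.14 (adjusted p = 0.0064). Of 8 S100 genes 3 rose and 2 fell, the others being S100a11 (2.95 ± 0.45, adjusted p = 0.0013), S100a6 (3.04 ± 0.57, adjusted p = 0.0046, and 0.057 in limma-voom) and S100a13. S100a13 fell by 0.88 ± 0.22 and lost its call with library size scaling and without CCl4 replicates 2 or 3 or olive oil replicates 1 or 3 (adjusted p up to 0.18). Rhoc, a GTPase that acts on actin, went from 5.99, 10.9 and 10.97 CPM to 36.3, 31.5 and 29.2 CPM (1.79 ± 0.24, adjusted p = 0.00074).

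The tubulins did not move as a block. Tubulin alpha and beta chains form the heterodimers of microtubules, and the beta isotypes differ mainly in their tails. Tubb6, scarce in control livers at 2.86, 7.46 and 5.12 CPM, reached 59.4, 117 and 80.2 CPM with CCl4 (4.04 ± 0.37, adjusted p = 0.00034). Tubb2a went from 10.7, 9.95 and 11.5 CPM to 158, 114 and 84.6 CPM (3.47 ± 0.24, adjusted p = 3.6e-05), and Tubb2b, its neighbour in sequence, from 3.64, 1.81 and 6.34 CPM to 61.5, 44.9 and 39.4 CPM (3.63 ± 0.36, adjusted p = 0.00023). The paralogs share much of their coding sequence, and reads that fit more than 1 gene were not counted. Tuba4a was the most abundant tubulin of control liver per kilobase of exon, at 38.7 ± 2.05 CPM per kb (SD), and stood at 36.2 ± 6.93 CPM per kb with CCl4. Its log2 change was -0.09 ± 0.17 (adjusted p = 0.73), with the groups overlapping, and it turned to 0.06 without CCl4 replicate 1 and to 0.38 with library size scaling. On the same scale Tubb2a rose from 6.64 ± 0.468 to 73.8 ± 23.1 CPM per kb and Tubb5 from 14.6 ± 1.77 to 67.6 ± 14.8 CPM per kb, so that in injured liver both were above the mean of Tuba4a. In CCl4 replicate 1 Tubb4b, at 69.4 CPM, and Tuba1c, at 27.6 CPM, were well below the other CCl4 livers. Tubb4b (1.88 ± 0.44) and Tuba1c (1.23 ± 0.36) lost their calls without CCl4 replicate 2, without CCl4 replicate 3 and without any olive oil library, with adjusted p up to 0.095 and 0.15.

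**Figure D2:**
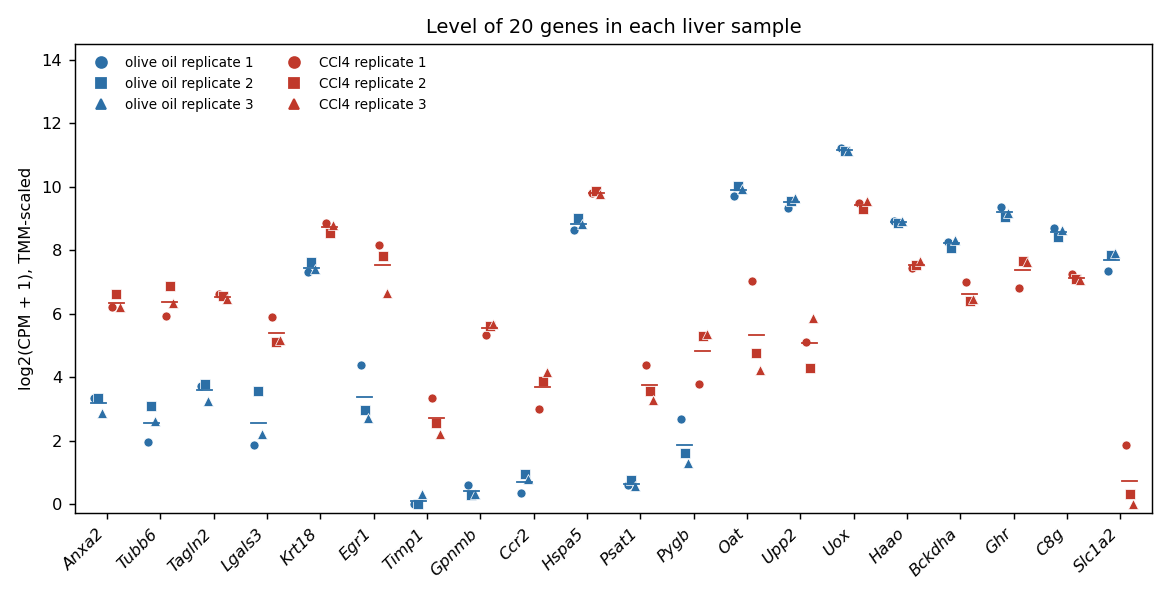
Level of 20 genes in each of the 6 livers, as log2(CPM + 1), with one point per library and a horizontal line at the mean of each group (n = 3). For the 10 genes from Anxa2 to Hspa5 and for Psat1 and Pygb every CCl4 point lies above every olive oil point, and for the 8 genes from Oat to Slc1a2 below.

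Epithelial filaments, junctions and cell surface proteins showed more selective changes. Krt18 (ENSMUSG00000023043, chromosome 15, 102028180 to 102032027, plus strand) and Krt8, the keratin pair of hepatocytes and bile duct cells, went from 159.5, 197 and 167 CPM to 460.3, 372 and 440.2 CPM and from 98.4, 122 and 97.7 CPM to 211, 212 and 254 CPM. The rises were 1.28 ± 0.18 (adjusted p = 0.00085) and 1.09 ± 0.16 (adjusted p = 0.0012), with no overlap in either. Cholangiocyte markers moved with them, at 210 to 337 CPM in sum against 81.9 to 132 CPM, with 2 of 4 tested risen and 158, 284 and 228 CPM against 46.3, 105 and 53.1 CPM for the most abundant, Spp1, and their part in the keratin rise was not tested. Of 26 junction genes 4 rose, among them Cldn1, a tight junction strand protein, at 81.8, 155 and 159 CPM against 46.8, 45.2 and 37.3 CPM (1.61 ± 0.25, adjusted p = 0.002). The adhesion molecule F11r rose by 0.97 ± 0.13 (adjusted p = 0.00082). The gap junction protein Gja1 rose by 2.34 ± 0.58, and its call was lost without CCl4 replicate 2 or without olive oil replicates 1 or 3 (adjusted p up to 0.07). Integrins bind cells to matrix, and 5 of 16 rose, led by Itga5, the fibronectin receptor chain, at 52.0, 76.9 and 64.3 CPM against 23.7, 23.5 and 27.5 CPM (1.37 ± 0.18, adjusted p = 0.00058). Itga6, a laminin receptor chain, rose by 2.06 ± 0.40 (adjusted p = 0.005). The risen integrins numbered 9 without CCl4 replicate 1 and 3 without CCl4 replicate 2 or olive oil replicate 2, 8 with upper quartile scaling and 11 with no filter. Itgb3, Itgav and Itgb5, the chains of vitronectin receptors, rose by 1.79 ± 0.43, 0.73 ± 0.18 and 0.56 ± 0.17, and all 3 lost their calls without olive oil replicate 2 and without 1 or more other libraries (adjusted p up to 0.062, 0.07 and 0.15). Of 6 galectins, which bind galactosides on glycoproteins, 3 rose, and Lgals3 went from 2.60, 10.9 and 3.66 CPM to 58.7, 33.4 and 34.9 CPM (2.85 ± 0.50, adjusted p = 0.0077). Tetraspanins went both ways: Cd63, of late endosomes, rose from 1.30, 1.58 and 1.95 CPM to 38.5, 16.3 and 11.9 CPM (3.75 ± 0.53, adjusted p = 0.0013), and Tspan12 fell from 162, 151 and 175 CPM to 75.0, 75.0 and 82.5 CPM (-1.07 ± 0.14, adjusted p = 0.00058). Cd9, a tetraspanin of the plasma membrane, rose from 13.01, 17.2 and 15.4 CPM to 40.7, 34.2 and 33.8 CPM (1.25 ± 0.18, adjusted p = 0.001).

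In the extracellular matrix 11 of 21 collagens and 27 of 47 glycoproteins and crosslinkers rose, with medians of 1.86 and 1.33. Nid1, nidogen, which joins laminin to collagen IV (ENSMUSG00000005397, chromosome 13, 13437551 to 13512269, plus strand), was at 112, 101 and 74.2 CPM with CCl4 and 11.2, 8.59 and 11.5 CPM with olive oil (3.20 ± 0.21, adjusted p = 2.3e-05). The collagen IV chains Col4a1 and Col4a2, which are transcribed from a shared promoter, rose by 2.37 ± 0.26 (adjusted p = 0.00042) and 1.80 ± 0.20 (adjusted p = 0.00027), and the laminin chain Lamc1 by 1.33 ± 0.21 (adjusted p = 0.0019). Per kilobase of exon the ranking of collagens was led by Col18a1, the source of endostatin, in both groups, at 107 ± 23.0 CPM per kb with CCl4 and 154 ± 3.91 CPM per kb with olive oil. It did not pass the test (-0.53 ± 0.21, adjusted p = 0.1), except in DESeq2 and without CCl4 replicate 1 (adjusted p down to 0.002). Next with CCl4 came the fibrillar chain Col3a1, at 28.4 ± 18.0 CPM per kb, against 2.31 ± 0.532 CPM per kb with olive oil. The crosslinking oxidases Loxl2 and Lox were near the floor in control livers. Loxl2 was at 12.2, 31.4 and 13.1 CPM against 3.38, 1.13 and 2.19 CPM (3.10 ± 0.51, adjusted p = 0.0026). Lox was seen with 112 reads with CCl4 and 2 with olive oil, a ratio of 37.3 after scaling (95% counting interval 10.1 to 311). The elastic fibre genes Fbn1 and Eln rose by 3.66 ± 0.42 (adjusted p = 0.00031) and 3.04 ± 0.58 (adjusted p = 0.0048, and 0.071 in limma-voom). Among the 2 fallen collagens Col27a1, a fibrillar chain of cartilage, was highest in olive oil replicate 1, at 92.7, 35.7 and 33.1 CPM against 4.35, 9.17 and 9.77 CPM, and its call ended when any CCl4 library was left out (adjusted p up to 0.059).

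Among enzymes that cut matrix and their inhibitors 17 of 34 rose and none fell in edgeR's test, where 18 had an unadjusted p under 0.05. The count was 8 without olive oil replicate 3, 10 without CCl4 replicate 2 or olive oil replicate 2 and 11 without olive oil replicate 1. Mmp14, the membrane-bound collagenase that activates pro-MMP2, went from 22.9, 25.1 and 15.4 CPM to 101, 68.4 and 60.3 CPM (1.85 ± 0.24, adjusted p = 0.00082). Timp1, an inhibitor of metalloproteinases, was read 103 times with CCl4 and once with olive oil, a ratio of 68.5 (counting interval 12.0 to 2732). The secreted protease Adamts1, which cleaves proteoglycans, rose by 1.89 ± 0.29 (adjusted p = 0.0015). The membrane protease Adam8, known from leukocytes, was at 17.0, 7.29 and 4.14 CPM against 0, 1.36 and 0.487 CPM (3.82 ± 0.82, adjusted p = 0.0099), and its call was lost without olive oil replicate 3 (adjusted p up to 0.065).

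Genes of the immediate-early class, which respond quickly to growth factors and stress, were higher at day 3 in 8 of 20 cases and lower in 2, Klf10 and Dusp1. The falls numbered 1 without any library other than CCl4 replicate 1 and 0 with library size scaling. Klf6 was at 30.2, 32.0 and 15.1 CPM against 3.12, 6.33 and 4.14 CPM (2.49 ± 0.36, adjusted p = 0.0012). Myc, a driver of growth genes, went from 1.82, 1.36 and 3.66 CPM to 18.9, 9.68 and 14.4 CPM (2.63 ± 0.42, adjusted p = 0.0018), and the stress factor Atf3 from 1.04, 0.226 and 0 CPM to 7.39, 8.42 and 6.63 CPM (4.12 ± 0.67, adjusted p = 0.0019). Egr1 had the widest spread, 288, 224 and 98.4 CPM against 20.04, 6.78 and 5.60 CPM (4.24 ± 0.70, adjusted p = 0.013), and its call was lost without CCl4 replicate 2 (adjusted p = 0.052). The AP-1 subunits Jun and Fos rose by 1.80 ± 0.32 (adjusted p = 0.0034) and 3.09 ± 0.60 (adjusted p = 0.0047, and 0.056 in limma-voom).

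Genes of growth factors and their receptors moved both ways. Hgf, hepatocyte growth factor, which is made by stellate and endothelial cells, rose from 1.82, 4.75 and 1.22 CPM to 9.13, 13.9 and 10.9 CPM (2.10 ± 0.45, adjusted p = 0.0083), and the mesenchymal receptor Pdgfrb from 5.21, 6.78 and 3.90 CPM to 13.5, 23.0 and 14.2 CPM (1.68 ± 0.32, adjusted p = 0.0043). Vegfa, the endothelial growth factor, fell from 173, 175 and 199 CPM to 113, 76.8 and 81.5 CPM (-1.01 ± 0.18, adjusted p = 0.0029). Hgfac, a plasma protease that activates HGF, fell by 0.91 ± 0.20 (adjusted p = 0.0089, and 0.11 with library size scaling). Egfr, the EGF receptor, was at 836, 356 and 503.4 CPM against 1099, 1145 and 1012 CPM (-0.94 ± 0.29, adjusted p = 0.041). Its call was lost without each library other than CCl4 replicate 1 and with library size or upper quartile scaling (adjusted p up to 0.14). Of the 27 growth factor and receptor genes tested 6 rose and 7 fell, with 1 fallen under library size scaling. The rises were 3 without CCl4 replicate 2 or olive oil replicate 2 and 2 without olive oil replicate 3, and the falls were 3 without CCl4 replicate 2. Among 42 genes of TGF-beta, activin and BMP signalling 9 rose and 4 fell. The rises dropped to 3 without olive oil replicate 3 and to 5 in limma-voom and without CCl4 replicate 2 or olive oil replicate 2. The falls in it were 1 without CCl4 replicates 2 or 3 or olive oil replicate 3 and 2 without the other olive oil libraries. Id3, a target of BMP signalling, rose by 1.14 ± 0.22 (adjusted p = 0.0053) and the secreted activin binder Fstl1 by 3.02 ± 0.54 (adjusted p = 0.0057).

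In the small list of Hedgehog and Notch genes 27.3% rose and none fell, and in that of Hippo pathway targets 16.7% rose and 16.7% fell. Hedgehog signals pass through the membrane protein Smo, which was at 9.13, 14.45 and 12.8 CPM against 2.86, 5.43 and 4.63 CPM (1.49 ± 0.33, adjusted p = 0.0097). In the Notch pathway, the receptor Notch2 (0.49 ± 0.14, adjusted p = 0.034) and the target Hes1 (1.15 ± 0.34, adjusted p = 0.035) rose with all libraries and lost their calls without any library other than CCl4 replicate 1 (adjusted p up to 0.12 and 0.13). These were the 3 rises among 11 genes, and the count was 1 without any of those libraries. Of 18 genes induced by YAP and TEAD, the factors of the Hippo pathway, 3 rose and 3 fell. Ccdc80, a secreted matrix protein, went from 9.11, 10.4 and 4.63 CPM to 29.1, 43.1 and 30.3 CPM (2.09 ± 0.29, adjusted p = 0.0009) and the membrane repair protein Myof from 0.781, 3.62 and 1.46 CPM to 15.7, 10.2 and 9.61 CPM (2.54 ± 0.48, adjusted p = 0.0041). Ccn2 (CTGF), a matricellular protein, was at 15.4, 6.16 and 4.97 CPM against 0.521, 2.71 and 3.17 CPM (2.00 ± 0.62, adjusted p = 0.044) and lost its call in limma-voom and without any library other than CCl4 replicate 3 (adjusted p up to 0.12). The falls of Dock5 (-0.75 ± 0.16), Amotl2 (-0.79 ± 0.20) and Nuak2 (-0.79 ± 0.25) were not called with library size scaling (adjusted p up to 0.33, 0.39 and 0.44). Amotl2 also lost its call without olive oil replicates 1 or 3. Nuak2 also lost it with relative log expression or upper quartile scaling, in DESeq2 and limma-voom, and without CCl4 replicates 1 or 2 or olive oil replicates 1 or 2. The falls of that list numbered 1 without olive oil replicate 1.

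Among genes of the growth hormone axis, those of the receptor and of the carrier of its product fell. Ghr, the growth hormone receptor (ENSMUSG00000055737, chromosome 15, 3317760 to 3583492, minus strand), was at 111, 200.2 and 196 CPM with CCl4 and 662, 528 and 577 CPM with olive oil (-1.80 ± 0.25, adjusted p = 0.00079). Igfals, the subunit that stabilises IGF1 in plasma, was nearly constant in control livers at 139, 139.7 and 141 CPM and fell to 28.7, 47.8 and 43.9 CPM (-1.80 ± 0.19, adjusted p = 0.00018). Igf1 itself was at 588, 348 and 335 CPM against 590.3, 631 and 619.7 CPM and did not pass (-0.54 ± 0.24, adjusted p = 0.13), except without CCl4 replicate 1 (adjusted p = 0.00034). Over the 21 genes of the axis 1 rose and 3 fell (4.76% and 14.3%), the falls close to the 11.6% of all genes tested. The rise was lost without any library other than CCl4 replicate 1, and the falls numbered 7 without that one. The list had a median of -0.12 that became 0.32 under library size scaling, where 2 fell.

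Of 36 regulators of cell death 5 rose and 3 fell (13.9% and 8.33%), close to the 11.3% and 11.6% of all genes tested, with a median of 0.03. Tnfrsf12a, the receptor of TWEAK (ENSMUSG00000023905, chromosome 17, 23675445 to 23677468, minus strand), was at 85.5, 46.9 and 28.5 CPM against 7.81, 5.43 and 6.58 CPM (3.01 ± 0.44, adjusted p = 0.0031). Tnfrsf10b, the mouse TRAIL receptor, had 65 reads with CCl4 and 1 with olive oil, a ratio of 43.2 (counting interval 7.49 to 1734). Tnfrsf21, another receptor of the TNF family, rose by 1.27 ± 0.36 (adjusted p = 0.027) and lost its call without CCl4 replicates 2 or 3 or olive oil replicates 1 or 3 (adjusted p up to 0.099). The apoptosome scaffold Apaf1 and the necroptosis effector Mlkl rose by 3.04 ± 0.54 (adjusted p = 0.0031) and 1.79 ± 0.33 (adjusted p = 0.0038). The fallen members were Bmf, Bik and Bnip3. Bmf, whose product neutralises survival factors of the BCL2 family (ENSMUSG00000040093, chromosome 2, 118528757 to 118549687, minus strand), went from 23.4, 21.5 and 15.1 CPM to 3.48, 0.88 and 1.99 CPM (-3.32 ± 0.42, adjusted p = 0.00052). Bik fell by 2.12 ± 0.43 (adjusted p = 0.0064) and Bnip3, also a receptor for mitophagy, by 1.35 ± 0.15 (adjusted p = 0.00029). Without CCl4 replicate 2 the risen regulators numbered 3, and without CCl4 replicate 1 the fallen ones 5.

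Of 9 tested markers of monocytes and infiltrating macrophages 6 rose, and of 11 tested markers of the resident Kupffer cells 3 fell. Ccr2, the chemokine receptor that brings monocytes into tissue (ENSMUSG00000049103, chromosome 9, 124101950 to 124113557, plus strand), was at 6.96, 13.6 and 16.9 CPM against 0.26, 0.904 and 0.731 CPM (4.24 ± 0.53, adjusted p = 0.00048), and Trem2, a lipid-sensing receptor of tissue macrophages, at 6.31, 11.2 and 14.7 CPM against 0.781, 1.36 and 0.731 CPM (3.45 ± 0.48, adjusted p = 0.00086). The 12 monocyte and macrophage markers summed to 152 to 199 CPM with CCl4 and 17.4 to 32.3 CPM with olive oil. The 12 Kupffer cell markers summed to 528 to 802 CPM against 736 to 1175 CPM, with overlap. Timd4, a phosphatidylserine receptor, fell and was at 2.61, 3.27 and 4.31 CPM against 7.81, 15.6 and 11.7 CPM (-1.77 ± 0.36, adjusted p = 0.0061). The other fallen markers were C6, which hepatocytes also express, and Nr1h3 (-0.57 ± 0.12, adjusted p = 0.0089, and 0.64 with library size scaling). Marco, a scavenger receptor on the same marker list, was higher in each CCl4 liver, at 86.3, 36.8 and 42.9 CPM against 1.56, 25.5 and 15.6 CPM, without passing (adjusted p = 0.19). In whole liver, fewer cells of a type and less RNA per cell cannot be told apart. Of 13 chemokine genes Ccr2 and Ccl9, a macrophage chemokine, rose, the latter by 1.53 ± 0.23 (adjusted p = 0.0017), and 4 rose without olive oil replicate 2 and 6 with no filter. Cxcl12, a chemokine of stromal cells, fell by 0.62 ± 0.17 (adjusted p = 0.027), a call lost with library size scaling and without any library other than CCl4 replicate 1 (adjusted p up to 0.65). Neutrophil markers were 8.17 to 78.3 CPM in sum against 1.30 to 26.0 CPM, with CCl4 replicate 1 highest and none of the 3 tested markers called by edgeR. T cell markers were at or below 8.36 CPM in sum in each of the 6 libraries. Summed markers of vascular endothelium (55.9 to 81.9 against 43.7 to 46.3 CPM), dendritic cells (174 to 231 against 112 to 151 CPM) and platelets (24.0 to 25.01 against 8.07 to 18.5 CPM) were also higher with CCl4 without overlap. The dendritic cell sum was mostly Bst2, at 177, 147 and 204 CPM against 90.05, 124 and 96.3 CPM. Bst2 was the 1 risen of 3 tested dendritic markers, and the others, H2-Ab1 and Zbtb46, overlapped between groups. Of 3 tested platelet markers 2 rose, and Gp1bb, Gp5 and Gp6 had no read. The part of the cell types given here in the changes of matrix, protease and surface genes was not tested.

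**Figure D3:**
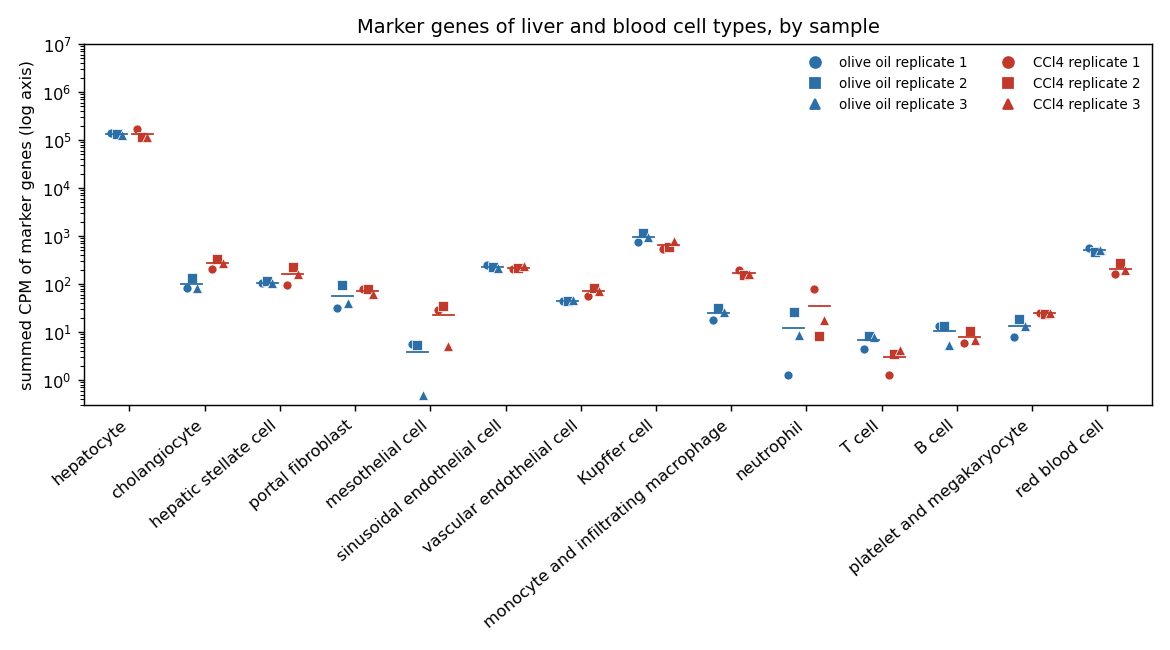
Summed CPM of defining markers of 14 cell types in each library, on a log axis, with CCl4 libraries in red, olive oil libraries in blue and lines at the group means. Monocyte and macrophage (152 to 199 against 17.4 to 32.3 CPM), cholangiocyte, vascular endothelial and platelet markers lie higher with CCl4 without overlap, T cell and red blood cell markers lower, and the markers of the other 8 types overlap.

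Among receptors for the clearance of debris and immune complexes 5 of 34 rose and none fell in edgeR, where 9 had an unadjusted p under 0.05. The 5 were Trem2, Sirpa, Fcer1g, Cd68 and Msr1, and the count was 2 without CCl4 replicate 3 or olive oil replicates 1 or 3, 8 in DESeq2 and 14 with no filter. Sirpa, the receptor of the signal that blocks phagocytosis, was at 37.6, 59.1 and 63.4 CPM against 10.7, 26.0 and 21.7 CPM (1.45 ± 0.33, adjusted p = 0.015, and up to 0.057 without CCl4 replicate 2 or olive oil replicate 3). C1qa, which starts the classical complement pathway and is made by macrophages, overlapped at 56.8, 39.2 and 64.4 CPM against 26.8, 70.3 and 40.7 CPM (0.21 ± 0.36, adjusted p = 0.72), with a negative change without olive oil replicate 1. Lysosomal genes rose in 9 and fell in 6 of 50 cases, and none of them fell with library size scaling. Galns, which degrades sulfated glycosaminoglycans, went from 11.97, 14.7 and 15.4 CPM to 27.4, 23.0 and 26.3 CPM (0.86 ± 0.19, adjusted p = 0.0091). The lysosomal calcium channel Mcoln1 fell by 0.86 ± 0.17 (adjusted p = 0.0051, and 0.15 with library size scaling). The risen lysosomal genes numbered 2 without olive oil replicates 1 or 3 and 5 without CCl4 replicates 2 or 3, and the fallen ones 11 without CCl4 replicate 1 and 2 or 3 without any other library.

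Interferon-stimulated genes rose in small number, 11 of 50, and none fell in edgeR's test. The count depended on single libraries: it was 3 without olive oil replicate 3, 4 without olive oil replicate 1 and 5 without CCl4 replicate 3. Ifi27l2b, a mitochondrial membrane protein gene of the ISG12 family, went from 6.25, 7.91 and 7.07 CPM to 51.8, 75.9 and 73.2 CPM (3.24 ± 0.21, adjusted p = 2.3e-05). Ifi27 rose by 0.94 ± 0.15 (adjusted p = 0.002) and Oas1a, a sensor of double-stranded RNA, by 2.04 ± 0.45 (adjusted p = 0.0094). The class I light chain B2m fell and was at 1179, 1138 and 1273 CPM against 2139, 1987 and 2209 CPM (-0.82 ± 0.20, adjusted p = 0.016). That call was lost with library size scaling, without CCl4 replicate 2 and without any olive oil library (adjusted p up to 0.23). Of 26 class I presentation genes 1 rose and 2 fell. The falls numbered 0 without CCl4 replicate 2 or any olive oil library and 1 without CCl4 replicate 3, and with library size scaling 8 rose and none fell. None of 7 class II presentation genes passed in edgeR, where 2 had an unadjusted p under 0.05, and 1 rose in DESeq2 and in limma-voom. Cd74, the invariant chain, was at 26.5, 36.1 and 36.9 CPM against 47.1, 71.0 and 40.9 CPM (adjusted p = 0.053, and down to 0.0021 with no filter or without olive oil replicate 3). Lifr, the receptor of leukaemia inhibitory factor, fell from 437, 419.6 and 498 CPM to 103, 204 and 167 CPM (-1.51 ± 0.24, adjusted p = 0.0019). Osmr, the oncostatin M receptor, rose by 2.45 ± 0.57 (adjusted p = 0.012) with its highest value in CCl4 replicate 1, 17.6 CPM, and lost its call in limma-voom and without olive oil replicates 1 or 3 (adjusted p up to 0.068).

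Among proteins that the liver secretes into blood, the complement system showed the most falls, 13 of 33 tested, with 1 rise that was lost without CCl4 replicates 2 or 3 or olive oil replicate 3. The median was -0.56, or -0.09 with library size scaling, where 3 fell. C8g, the lipocalin chain of the terminal complex (ENSMUSG00000015083, chromosome 2, 25498651 to 25501719, minus strand), was at 150.0, 137 and 131 CPM against 414, 340.5 and 399 CPM (-1.46 ± 0.17, adjusted p = 0.00031). C6, of the same membrane attack complex, fell from 342, 456 and 389.9 CPM to 107, 159 and 193 CPM (-1.37 ± 0.23, adjusted p = 0.0024). Leaving out CCl4 replicate 1 gave 18 fallen complement genes, leaving out CCl4 replicate 2 gave 8 and leaving out olive oil replicates 2 or 3 gave 7. Of 30 coagulation genes 4 fell, led by the plasma prekallikrein gene Klkb1 (-1.26 ± 0.18, adjusted p = 0.001), and the 1 risen member was F11r, given above as a junction protein. The falls were 12 without CCl4 replicate 1, 2 without CCl4 replicate 3 or olive oil replicates 2 or 3 and 7 in DESeq2. The median of that list was -0.22 and turned to 0.21 under library size scaling, where 1 fell. Serpina7, thyroxine-binding globulin, went from 35.9, 24.2 and 25.6 CPM to 5.65, 5.53 and 2.32 CPM (-2.66 ± 0.32, adjusted p = 0.00042). Pigr, which carries immunoglobulin A into bile, fell by 1.26 ± 0.22 (adjusted p = 0.0026), and the constitutive serum amyloid Saa4 by 1.88 ± 0.30 (adjusted p = 0.002).

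Of 29 acute phase genes 1 rose and 3 fell. The metalloreductase gene Steap4 rose by 1.04 ± 0.23 (adjusted p = 0.01), a call lost without olive oil replicates 1 or 3 (adjusted p up to 0.07). Saa4 and Pigr, given above, fell, as did Crp, the C-reactive protein gene (-0.80 ± 0.19, adjusted p = 0.014). The call of Crp was lost with library size scaling and without CCl4 replicates 2 or 3 or olive oil replicates 2 or 3 (adjusted p up to 0.19). Several other members varied widely within each group. Saa1 was at 1952, 253 and 70.4 CPM with CCl4 and 146, 4628 and 1907 CPM with olive oil (adjusted p = 0.59). Lcn2, lipocalin 2, a bactericidal iron-siderophore binder, was 3176, 371 and 232 CPM against 8.85, 744 and 181 CPM (adjusted p = 0.51). In both groups the values ranged over more than an order of magnitude, and olive oil replicate 1 was the lowest control. The metallothioneins, small zinc and copper binding proteins, had the same kind of spread: Mt1 (ENSMUSG00000031765, chromosome 8, 94179082 to 94180327, plus strand) was at 1609, 16.6 and 22.0 CPM against 6.25, 272 and 63.8 CPM (adjusted p = 0.56), and Mt2 at 1542, 8.80 and 6.63 CPM against 3.90, 233 and 41.7 CPM (adjusted p = 0.57). Without CCl4 replicate 1 the changes of Mt1, Mt2 and Lcn2 turned negative.

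Several fasting-responsive and hormone-responsive genes set CCl4 replicate 1 apart from both other CCl4 livers. Igfbp1, an insulin-repressed binding protein of IGFs, was at 1773, 72.0 and 21.4 CPM against 18.0, 16.7 and 8.77 CPM, higher in each CCl4 liver than in any control, and did not pass (5.42 ± 2.10, adjusted p = 0.15). Mat1a, the methionine adenosyltransferase of adult hepatocytes (ENSMUSG00000037798, chromosome 14, 41105035 to 41124412, plus strand), was at 8084, 586 and 648 CPM against 2376, 2804 and 2230.5 CPM. Its change was 0.33 ± 1.15 (adjusted p = 0.88) with all libraries and -1.99 without CCl4 replicate 1 (adjusted p = 1.4e-06). Pck1, the cytosolic step of gluconeogenesis, was at 3285, 283 and 143 CPM against 2527, 3168 and 3166 CPM and passed only without that library (adjusted p = 8.7e-06), among the alternatives run.

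**Figure D4:**
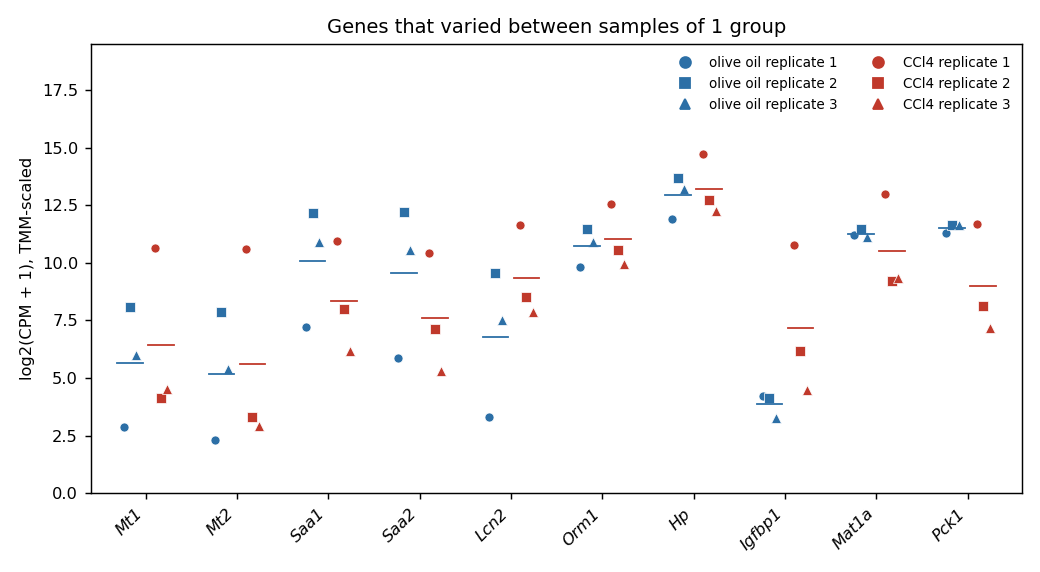
Level, as log2(CPM + 1), of 10 acute phase, metallothionein and fasting-responsive genes in each library, with lines at the group means. CCl4 replicate 1, drawn as a red circle, lies far from the other CCl4 livers for Mt1, Mt2, Igfbp1, Mat1a and Pck1, and none of the 10 genes passed with all 6 libraries.

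Genes of amino acid breakdown were lowered broadly. Of 24 genes of branched-chain amino acid and propionate breakdown 17 fell and none rose, with a median of -0.80. Of 26 genes of aromatic amino acid, tryptophan and NAD metabolism 14 fell and none rose, with a median of -0.79. Under library size scaling both medians stayed below 0 (-0.36 and -0.35) and 5 genes fell in each. Bckdha, the E1 alpha subunit of the complex that commits branched-chain keto acids to oxidation (ENSMUSG00000060376, chromosome 7, 25629946 to 25658981, minus strand), was at 126, 84.2 and 87.9 CPM against 307, 270.4 and 320.0 CPM (-1.59 ± 0.19, adjusted p = 0.00043). Ppm1k, the phosphatase that activates that complex, fell by 1.42 ± 0.20 (adjusted p = 0.00092). Further down the pathways, Aldh6a1, of valine breakdown, fell by 1.21 ± 0.17 (adjusted p = 0.00082) and Auh, of leucine breakdown, by 1.27 ± 0.18 (adjusted p = 0.00082). In the tryptophan branch, Haao, the step before quinolinate, went from 479, 465 and 485 CPM to 172, 185 and 201 CPM (-1.35 ± 0.17, adjusted p = 0.00043) and the dioxygenase Ido2 from 132, 108 and 91.6 CPM to 38.7, 38.2 and 47.5 CPM (-1.41 ± 0.17, adjusted p = 0.0004).

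Genes of proline, ornithine and nitrogen handling moved both ways. Prodh, proline dehydrogenase, fell from 225, 217 and 219 CPM to 65.2, 25.3 and 47.2 CPM (-2.27 ± 0.31, adjusted p = 0.0015). Oat, ornithine aminotransferase of pericentral hepatocytes (ENSMUSG00000030934, chromosome 7, 132557478 to 132576398, minus strand), was at 129, 26.1 and 17.6 CPM against 829.7, 1042 and 979 CPM (-4.05 ± 0.89, adjusted p = 0.031). CCl4 replicate 1 was the highest injured liver for Oat, and the call ended with no filter and without CCl4 replicate 2 or any olive oil library (adjusted p up to 0.08). Aldh18a1, which makes the proline precursor from glutamate, rose from 2.08, 3.17 and 1.46 CPM to 8.05, 11.8 and 11.1 CPM (2.19 ± 0.38, adjusted p = 0.0027). The liver glutaminase Gls2 (ENSMUSG00000044005, chromosome 10, 128194457 to 128210004, plus strand) fell from 373, 336 and 348 CPM to 220.1, 109 and 145 CPM (-1.16 ± 0.24, adjusted p = 0.007). Of 17 urea cycle and nitrogen genes 1 rose and 5 fell. The list's median of -0.21 became 0.23 under library size scaling, where 3 fell. The falls were 11 without CCl4 replicate 1 and 3 without CCl4 replicate 2 or olive oil replicate 1. Car5a, the mitochondrial carbonic anhydrase that supplies bicarbonate to the cycle, fell by 1.83 ± 0.19 (adjusted p = 0.00021).

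Of 32 genes of methionine, one-carbon and sulfur metabolism 5 rose and 8 fell. Psat1, the transaminase of serine synthesis (ENSMUSG00000024640, chromosome 19, 15904678 to 15947337, minus strand), was at 19.8, 10.8 and 8.78 CPM against 0.521, 0.678 and 0.487 CPM (4.47 ± 0.50, adjusted p = 0.00029). The next enzyme, Psph, went from 4.16, 6.10 and 4.63 CPM to 18.7, 18.98 and 14.7 CPM (1.80 ± 0.26, adjusted p = 0.0011), and Mthfd2, of mitochondrial folate metabolism, from 1.30, 1.81 and 1.46 CPM to 6.96, 6.66 and 4.47 CPM (1.96 ± 0.43, adjusted p = 0.0089). Psat1, Psph and Mthfd2 were all low in control liver. Suox, sulfite oxidase, fell from 129.9, 104 and 94.1 CPM to 37.4, 27.6 and 28.0 CPM (-1.82 ± 0.18, adjusted p = 0.00014), and the sarcosine dehydrogenase Sardh from 1090.2, 984 and 951 CPM to 384, 460.1 and 431 CPM (-1.25 ± 0.19, adjusted p = 0.0014). The median of the list was -0.27 (0.12 and 4 fallen with library size scaling). The rises numbered 3 without olive oil replicate 1. The falls numbered 14 without CCl4 replicate 1, 5 without CCl4 replicate 2 and 4 without any one of the olive oil libraries.

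Genes of nucleotide breakdown and synthesis moved both ways. Upp2, a uridine phosphorylase of liver (ENSMUSG00000026839, chromosome 2, 58567298 to 58792971, plus strand), had the largest fall of this group, from 638, 749 and 797 CPM to 33.05, 18.6 and 57.1 CPM (-4.33 ± 0.40, adjusted p = 0.00025). Uox, urate oxidase, which ends purine breakdown in the mouse (ENSMUSG00000028186, chromosome 3, 146570426 to 146632305, plus strand), was at 714, 623 and 744 CPM against 2367, 2219 and 2223 CPM (-1.71 ± 0.21, adjusted p = 0.00043). The dihydropyrimidinase Dpys fell by 1.21 ± 0.16 (adjusted p = 0.00077). Of pyrimidine synthesis, Cad, which starts the pathway, rose by 1.25 ± 0.21 (adjusted p = 0.002) and Ctps, which makes CTP, by 1.78 ± 0.26 (adjusted p = 0.0011). Of 19 breakdown genes 4 rose and 6 fell, and of 25 synthesis genes 5 rose and 5 fell. With library size scaling 4 and 1 fell. The rises among breakdown genes came to 0 without CCl4 replicate 2 or olive oil replicate 3 and to 2 without olive oil replicates 1 or 2. The rises among synthesis genes came to 2 without CCl4 replicate 2 or olive oil replicate 3 and to 3 without olive oil replicate 1, and the falls to 2 without olive oil replicates 1 or 3 and to 3 without CCl4 replicate 2.

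Of 51 genes of glycolysis, gluconeogenesis, glycogen and fructose metabolism 7 rose and 9 fell. Pkm, the pyruvate kinase of muscle and dividing cells, went from 3.38, 7.46 and 4.87 CPM to 31.5, 22.5 and 15.7 CPM (2.13 ± 0.34, adjusted p = 0.002). The liver form Pklr was at 41.7, 73.9 and 79.0 CPM against 467, 143 and 147 CPM and did not pass (-1.95 ± 0.58, adjusted p = 0.068), except in DESeq2 and without olive oil replicates 1 or 2 (adjusted p down to 0.00012). Pygb, the brain form of glycogen phosphorylase, rose from 5.47, 2.03 and 1.46 CPM to 12.8, 38.1 and 39.6 CPM (3.36 ± 0.61, adjusted p = 0.0087, and 0.064 in limma-voom), with CCl4 replicate 1 lowest of the 3. Pygl, the liver form, was at 104, 369 and 426 CPM against 557, 376 and 358 CPM, overlapping, with a change of -0.52 ± 0.51 (adjusted p = 0.52) that was 0.003 under library size scaling. Pfkp, the platelet phosphofructokinase, rose by 2.17 ± 0.48 (adjusted p = 0.0095), the mitochondrial Pck2 by 1.60 ± 0.31 (adjusted p = 0.005) and the lactate carrier Slc16a1 from 24.98, 26.7 and 29.2 CPM to 102, 138 and 93.4 CPM (2.04 ± 0.18, adjusted p = 6.6e-05). Slc2a2, the glucose carrier of hepatocytes, was at 99.6, 101 and 103 CPM against 464, 287 and 328 CPM (-1.83 ± 0.20, adjusted p = 0.00027), and the liver glycogen synthase Gys2 at 109, 89.4 and 86.5 CPM against 245, 239.6 and 328 CPM (-1.51 ± 0.18, adjusted p = 0.00041). The falls numbered 16 without CCl4 replicate 1 and 14 with no filter, and the median of -0.17 became 0.28 under library size scaling, where 5 fell.

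Nuclear genes of the respiratory chain were lower by small amounts, with 33 of 75 fallen, none risen in edgeR and a median of -0.47. With library size scaling none fell and the median was -0.02. The falls numbered 12 without olive oil replicates 1 or 3 and 16 without CCl4 replicate 2. Examples were the complex I subunit Ndufb9 (-0.91 ± 0.13, adjusted p = 0.0011, and 0.073 with library size scaling) and the complex II subunit Sdhb (-1.04 ± 0.17, adjusted p = 0.0021, and 0.094).

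Genes of drug conjugation and of antioxidant defence moved both ways. Of 22 glutathione S-transferases 7 fell, 4 with library size scaling or without olive oil replicates 1 or 3. Among them Gstk1, a mitochondrial and peroxisomal form, went from 111, 113 and 104 CPM to 53.5, 42.1 and 41.2 CPM (-1.26 ± 0.15, adjusted p = 0.00032). Mgst1, the abundant microsomal form, went from 3589, 3447 and 3417 CPM to 1564, 1419.7 and 1622 CPM (-1.18 ± 0.21, adjusted p = 0.0032). The 2 risen ones, Gstcd and Gstp3, lost their calls in limma-voom and without CCl4 replicate 2 or any olive oil library, Gstp3 also without CCl4 replicate 3 (adjusted p up to 0.12 and 0.15). When CCl4 replicate 1 was left out, 9 rose. Gpx1, the glutathione peroxidase of liver, was at 513, 706.6 and 794 CPM against 1615, 1846 and 2164 CPM (-1.48 ± 0.24, adjusted p = 0.002). Several genes that the factor NRF2 is known to induce were uneven among CCl4 livers, lowest in replicate 1 and highest in replicate 3 for the 3 given here. Srxn1, sulfiredoxin, was at 94.6, 269 and 611 CPM against 45.02, 39.8 and 47.5 CPM (2.88 ± 0.72, adjusted p = 0.044). Txnrd1, thioredoxin reductase, was at 154, 321 and 446 CPM against 132, 147 and 129.9 CPM (1.17 ± 0.34, adjusted p = 0.043). The quinone reductase gene Nqo1 was at 7.39, 19.2 and 31.5 CPM against 4.42, 8.14 and 6.34 CPM without passing (adjusted p = 0.055), although it passed in DESeq2 and without CCl4 replicate 1. Srxn1 and Txnrd1 lost their calls in limma-voom and without CCl4 replicate 2 or any olive oil library, Txnrd1 also without CCl4 replicate 3 (adjusted p up to 0.12 and 0.13). Of 38 genes in the NRF2 and antioxidant list 8 rose and 6 fell. The rises ranged from 1, without olive oil replicates 1 or 3, through 3, without CCl4 replicates 2 or 3 or olive oil replicate 2, to 16, without CCl4 replicate 1, and were 4 in limma-voom. Among carboxylesterases, which hydrolyse esters and lipids, 4 of 15 fell, 7 without CCl4 replicate 1, 2 without olive oil replicates 2 or 3 and 3 with library size scaling. Ces3b went from 2104, 1598 and 1745 CPM to 151, 308 and 342 CPM (-2.77 ± 0.32, adjusted p = 0.00032). The sulfotransferase Sult2a8, which acts on bile acids, went from 1051, 795 and 1062 CPM to 20.2, 90.9 and 74.2 CPM (-3.97 ± 0.56, adjusted p = 0.0034). Ugt1a1, which conjugates bilirubin and shares its last exons with the other Ugt1a genes, went from 169.7, 122.8 and 144 CPM to 77.8, 50.6 and 50.5 CPM (-1.29 ± 0.20, adjusted p = 0.0016).

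Among genes of vitamin A handling, the retinol dehydrogenase Rdh16 went from 61.2, 51.3 and 67.3 CPM to 19.4, 11.7 and 9.28 CPM (-2.17 ± 0.25, adjusted p = 0.0004). Of 20 genes 1 rose and 6 fell, 1 with library size scaling, and the stellate cell markers summed to 93.3 to 230 CPM with CCl4 and 103 to 114 CPM with olive oil. The part of those cells in the changes of this list was not tested. Heme and iron genes gave 4 rises and 7 falls among 35, and no fall with library size scaling. Hmox1, which degrades heme, was at 44.1, 28.2 and 35.4 CPM against 8.59, 23.1 and 12.2 CPM (1.28 ± 0.34, adjusted p = 0.027) and lost its call without CCl4 replicate 3 or olive oil replicates 1 or 3 (adjusted p up to 0.11). The falls numbered 3 without olive oil replicate 1, 2 without CCl4 replicate 2 and 1 without CCl4 replicate 3 or olive oil replicates 2 or 3, and the rises 2 without CCl4 replicate 3 and 1 without olive oil replicates 1 or 3.

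SLC carrier genes of membrane transport moved both ways, with 33 of 157 fallen and 16 risen. The risen share was below the 11.3% of all genes tested, and the fallen share was above their 11.6%. The median of the carriers was -0.23, or 0.23 with library size scaling, where 15 fell and 36 rose. Without CCl4 replicate 1 the falls numbered 51, and the rises were 4 without olive oil replicate 1 and 7 without olive oil replicate 3. Fallen carriers included the phosphate transporter family member Slc17a2, from 299, 257 and 304 CPM to 88.3, 107 and 75.7 CPM (-1.66 ± 0.18, adjusted p = 0.00022) and the glutamine carrier Slc38a3 (-1.28 ± 0.23, adjusted p = 0.0029). Among risen ones were the monocarboxylate carrier family members Slc16a1, given above, and Slc16a6, from 4.68, 7.91 and 8.29 CPM to 31.3, 25.4 and 22.7 CPM (1.91 ± 0.26, adjusted p = 0.00072). Slc7a8, a carrier of large neutral amino acids, rose by 1.38 ± 0.30 (adjusted p = 0.0087). The gene of an iron uptake receptor, Tfrc (transferrin receptor 1), rose and was at 46.5, 63.6 and 61.1 CPM against 16.7, 20.6 and 21.2 CPM (1.55 ± 0.18, adjusted p = 0.00033). Of chloride channels, Clcn2 fell from 70.8, 64.9 and 60.9 CPM to 16.5, 16.1 and 24.7 CPM (-1.78 ± 0.19, adjusted p = 0.00022) and Clic4, an intracellular channel protein tied to the cytoskeleton, rose by 0.84 ± 0.13 (adjusted p = 0.0018).

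The circadian clock is a loop in which ARNTL (BMAL1) with CLOCK or NPAS2 drives the Per, Cry and Nr1d genes, whose products repress the drivers, while the PAR factors DBP, TEF and HLF carry the rhythm to output genes. In CCl4 livers 3 of 21 clock genes rose, the drivers Arntl, Clock and Npas2, and 11 fell, with a median of -1.33 (-0.86 and 9 fallen with library size scaling). Arntl (ENSMUSG00000055116, chromosome 7, 113207465 to 113314126, plus strand) was at 14.4, 19.98 and 15.9 CPM against 1.82, 1.81 and 0.731 CPM (3.51 ± 0.37, adjusted p = 0.00019), and Clock at 45.9, 51.3 and 54.8 CPM against 22.4, 27.4 and 28.3 CPM (0.96 ± 0.16, adjusted p = 0.002). Npas2 was read 34 times with CCl4 and 2 times with olive oil, a ratio of 11.3 (counting interval 2.90 to 97.2), and its call was lost without CCl4 replicate 3 or olive oil replicates 1 or 3 (adjusted p up to 0.11). Ciart, a repressor of the CLOCK and ARNTL pair (ENSMUSG00000038550, chromosome 3, 95878503 to 95882251, minus strand), was at 3.48, 2.01 and 3.48 CPM against 22.1, 26.9 and 31.4 CPM (-3.19 ± 0.28, adjusted p = 6.9e-05). Tef (ENSMUSG00000022389, chromosome 15, 81802421 to 81826863, plus strand) was tightly grouped, at 73.3, 75.9 and 77.0 CPM against 259, 252 and 301 CPM (-1.84 ± 0.15, adjusted p = 5.3e-05). Dbp was at 4.13, 20.9 and 18.6 CPM against 143, 122 and 163 CPM (-3.26 ± 0.55, adjusted p = 0.012), lowest in CCl4 replicate 1. Per3 (ENSMUSG00000028957, chromosome 4, 151003652 to 151044665, minus strand) went from 51.8, 67.4 and 50.7 CPM to 13.05, 14.2 and 16.9 CPM (-1.94 ± 0.18, adjusted p = 0.0001) and Per2 from 44.5, 41.6 and 42.6 CPM to 18.5, 9.30 and 18.4 CPM (-1.50 ± 0.25, adjusted p = 0.0021). Some core members did not pass. Cry1, a repressor of the loop, was higher in each CCl4 liver than in any control, at 17.2, 6.91 and 7.12 CPM against 6.77, 2.49 and 3.66 CPM (1.26 ± 0.48, adjusted p = 0.089). It passed with library size scaling and with no filter (adjusted p down to 0.011). Nr1d1, the REV-ERB alpha repressor, was at 11.7, 56.7 and 40.2 CPM against 122.6, 86.4 and 125 CPM (adjusted p = 0.11), and Per1 overlapped between groups at 43.5, 12.6 and 13.9 CPM against 33.3, 57.9 and 60.9 CPM (adjusted p = 0.21). Nr1d1 and Per1 passed without CCl4 replicate 1, with adjusted p down to 0.00059 and 7.8e-05 over the alternatives. The labels do not give the hour at which either group was culled, so hour and treatment cannot be told apart.

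Because the clock list is defined by shared control, the 250 bases before the start of 3 fallen members are printed here, from RefSeq on GRCm38.p6, 5′ to 3′ on the gene's strand. Capitals mark the E-box CACGTG, to which CLOCK and ARNTL are known to bind, in Ciart (chr3:95882229-95882478, minus strand) and Tef (chr15:81802423-81802672, plus strand), and the PAR factor element TTATGTAA in Per3 (chr4:151044666-151044915, minus strand).
Ciart: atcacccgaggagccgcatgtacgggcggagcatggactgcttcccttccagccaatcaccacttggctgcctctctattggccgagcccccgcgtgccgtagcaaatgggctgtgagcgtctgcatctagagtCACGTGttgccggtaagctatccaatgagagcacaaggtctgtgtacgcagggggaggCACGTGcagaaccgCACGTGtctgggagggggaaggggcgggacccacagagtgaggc
Tef: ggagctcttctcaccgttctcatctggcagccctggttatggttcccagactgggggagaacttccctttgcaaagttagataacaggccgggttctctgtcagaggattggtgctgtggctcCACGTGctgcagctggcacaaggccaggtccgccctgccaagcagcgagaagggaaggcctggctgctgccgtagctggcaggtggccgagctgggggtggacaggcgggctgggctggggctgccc
Per3: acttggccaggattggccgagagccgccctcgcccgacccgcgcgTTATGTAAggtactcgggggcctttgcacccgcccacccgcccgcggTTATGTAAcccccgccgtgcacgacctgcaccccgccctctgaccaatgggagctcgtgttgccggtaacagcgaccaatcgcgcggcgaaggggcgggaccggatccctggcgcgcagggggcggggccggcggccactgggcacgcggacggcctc
Relative to the start, the E-box began at -116, -58 and -44 in Ciart and at -127 in Tef, 1 of whose 2 listed starts is shown. Per3 held its element at -205 and -158. Both strands were searched. Of 21 tested clock genes 17 had a promoter in the table, and 5 held CACGTG: 3 of 8 that fell (Ciart, Tef and Bhlhe41), 0 of 3 that rose and 2 of 6 not called (Cry1 and Per1). Over all 27025 genes with a promoter 6.86% held it, and 10.02% of the 8932 tested ones. TTATGTAA was in 0.977% of all and, within the list, in Per3 alone. A match describes the letters and not binding.

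**Figure D5:**
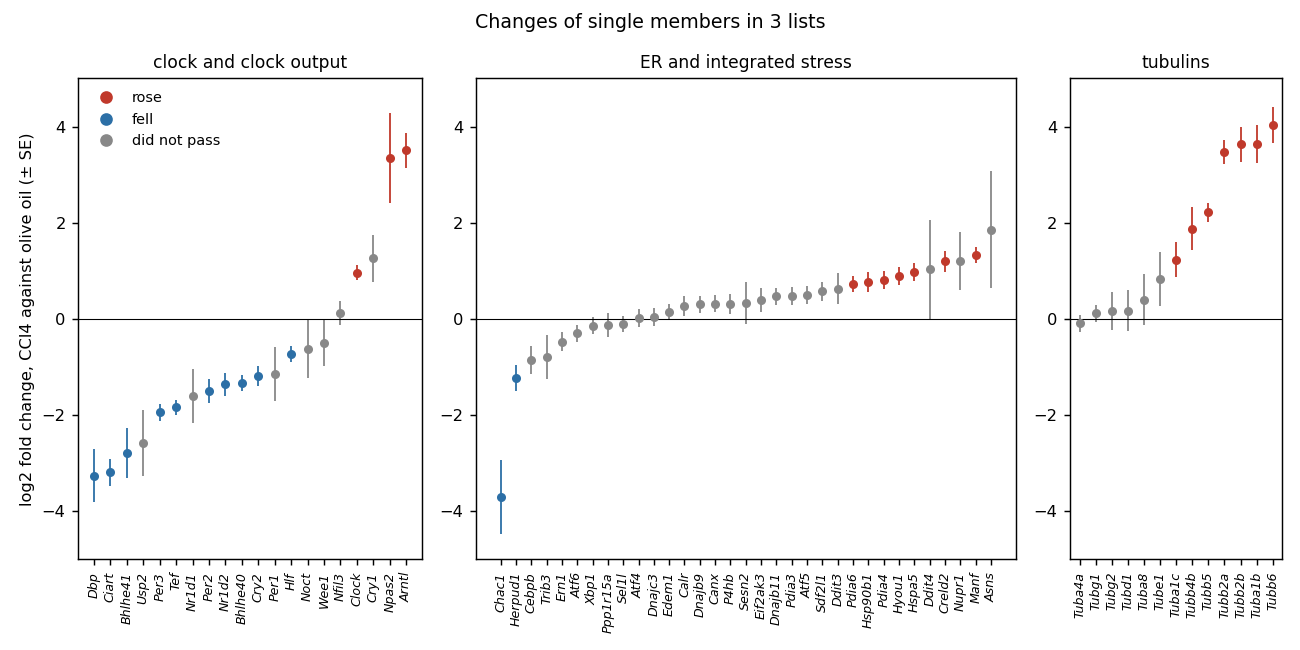
Log2 fold change ± SE (n = 3 per group) of members of the clock (20 of 21 tested), endoplasmic reticulum stress and tubulin lists (all tested), in red where it rose, blue where it fell and grey where it did not pass. Clock members spread from Arntl and Npas2 at the top to Dbp and Ciart at the bottom, and 7 of 13 tubulins are red.

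Some nuclear receptors and single hepatocyte transcription factors fell. Of 33 nuclear receptors 9 fell and none rose in edgeR, with a median of -0.41 that was 0.03 under library size scaling, where 3 fell. Nr1h4, the bile acid receptor FXR, was at 94.8, 73.6 and 88.9 CPM against 174, 167 and 171 CPM (-0.99 ± 0.15, adjusted p = 0.0012). Of 32 hepatocyte transcription factors 5 fell (15.6%), close to the 11.6% of all genes tested. The median of that list was -0.23 (0.22 and 1 fallen with library size scaling). The falls in it were 9 without CCl4 replicate 1 and 8 without CCl4 replicate 3. Klf15, a regulator of amino acid breakdown and gluconeogenesis, fell from 147, 177 and 199.6 CPM to 96.8, 52.8 and 66.3 CPM (-1.28 ± 0.22, adjusted p = 0.0031). Cebpa, which restrains hepatocyte division, was at 91.1, 119 and 176 CPM against 347, 264 and 321 CPM (-1.27 ± 0.24, adjusted p = 0.0044, and 0.072 with library size scaling). Hnf4a, the central factor of hepatocyte identity, overlapped at 738, 515 and 596 CPM against 607, 589.8 and 767 CPM (-0.09 ± 0.21, adjusted p = 0.81), and its sign changed with library size scaling and without CCl4 replicate 2 or olive oil replicate 3.

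Some chaperone genes of protein folding in the endoplasmic reticulum (ER) rose. Of 33 genes of ER stress and the integrated stress response 7 rose and 2 fell, and the 7 were ER chaperones, disulfide isomerases and their cofactors. Hspa5, the chaperone BiP (ENSMUSG00000026864, chromosome 2, 34771970 to 34777547, plus strand), was at 896, 928 and 872 CPM against 399, 518 and 452 CPM (0.98 ± 0.19, adjusted p = 0.0051). Manf, a secreted factor that binds BiP (ENSMUSG00000032575, chromosome 9, 106838312 to 106891979, minus strand), went from 38.0, 52.4 and 42.9 CPM to 122.6, 116 and 97.2 CPM (1.33 ± 0.16, adjusted p = 0.00043), and Creld2, a disulfide isomerase relative (ENSMUSG00000023272, chromosome 15, 88819646 to 88826683, plus strand), from 14.1, 21.7 and 19.01 CPM to 53.1, 35.1 and 38.4 CPM (1.20 ± 0.22, adjusted p = 0.0035). The disulfide isomerase Pdia6 (ENSMUSG00000020571, chromosome 12, 17266545 to 17284770, plus strand) rose by 0.73 ± 0.17 (adjusted p = 0.012). It did not pass without CCl4 replicate 2 or olive oil replicates 1 or 3 (adjusted p up to 0.071). Some other stress genes did not pass as risen, whereas Atf3, given above with the immediate-early genes, did. Ddit3, the stress factor CHOP, was at 7.18, 8.17 and 7.29 CPM against 5.47, 3.84 and 5.36 CPM without passing (adjusted p = 0.18, and 0.04 with library size scaling). Chac1 fell by 3.70 ± 0.76 (adjusted p = 0.0067) from 3.90, 8.36 and 2.92 CPM. Herpud1, of ER-associated degradation, fell from 395, 361 and 533 CPM to 265, 143 and 142 CPM (-1.23 ± 0.27, adjusted p = 0.011, and 0.06 without olive oil replicate 3). The count of risen members was 3 without olive oil replicate 3 and 4 without olive oil replicate 1, and that of fallen ones 4 without CCl4 replicate 1 and 1 without olive oil replicate 3.

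The ER stress element, known as the site of ATF6 with NF-Y, consists of CCAAT and CCACG 9 bases apart, and it was sought on both strands of the same 250 bases. The promoters of 3 risen genes are printed with it in capitals, Hspa5 (chr2:34771840-34772089, plus strand), Creld2 (chr15:88819396-88819645, plus strand, where it lies on the opposite strand) and Pdia6 (chr12:17266339-17266588, plus strand).
Hspa5: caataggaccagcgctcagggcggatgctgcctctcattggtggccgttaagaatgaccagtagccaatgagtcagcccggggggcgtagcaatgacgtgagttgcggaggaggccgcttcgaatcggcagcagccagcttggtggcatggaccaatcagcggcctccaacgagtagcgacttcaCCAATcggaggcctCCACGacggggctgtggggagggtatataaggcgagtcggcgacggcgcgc
Creld2: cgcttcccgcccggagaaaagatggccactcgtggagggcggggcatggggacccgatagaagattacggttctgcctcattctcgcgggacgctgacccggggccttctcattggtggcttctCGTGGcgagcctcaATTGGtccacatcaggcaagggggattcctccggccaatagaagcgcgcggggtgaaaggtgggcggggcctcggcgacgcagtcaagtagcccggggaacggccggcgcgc
Pdia6: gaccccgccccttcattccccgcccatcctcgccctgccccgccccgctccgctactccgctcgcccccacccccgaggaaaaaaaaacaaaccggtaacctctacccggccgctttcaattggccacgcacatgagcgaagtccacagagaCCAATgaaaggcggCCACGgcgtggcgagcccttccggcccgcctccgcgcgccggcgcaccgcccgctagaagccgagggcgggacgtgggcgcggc
Relative to the start it began at -65 in Hspa5, -126 in Creld2 and -98 in Pdia6. Of 30 list members with a promoter 7 held it: 4 of 5 that rose (those 3 and Hsp90b1), 0 of 2 that fell and 3 of 23 not called (Canx, Calr and Dnajc3). These counts depend on single libraries, since the call of Hsp90b1 (0.77 ± 0.21) was lost without any library other than CCl4 replicate 1 (adjusted p up to 0.12) and that of Pdia6 as given above. Among all genes 35 of 27025 held it (0.13%), and 15 of the 8932 tested (0.168%). The list was drawn up from genes known for ER stress, so its share holding the element reflects that choice and not these livers. Letters alone do not show binding, and the 3 members not called carried the same element. Of those 3, Calr and Canx passed with library size scaling, and Canx also without CCl4 replicate 1 (adjusted p down to 0.025 and 0.019).

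Lists of the nucleus and of RNA and protein handling differed in the share that rose. Of 54 nuclear pore and transport genes 20 rose and none fell in edgeR, with a median of 0.38. Of them 13 rose without olive oil replicates 1 or 3 and 39 with library size scaling. Nup93, a scaffold nucleoporin (ENSMUSG00000032939, chromosome 8, 94214564 to 94317227, plus strand), was at 20.7, 21.1 and 25.5 CPM against 3.90, 6.56 and 5.36 CPM (2.08 ± 0.25, adjusted p = 0.00042). Ran, the GTPase that gives transport its direction, went from 13.3, 18.99 and 13.6 CPM to 34.6, 41.0 and 42.9 CPM (1.36 ± 0.19, adjusted p = 0.00097). Of 66 splicing factors 13 rose and 1 fell, with 6 to 8 rises when a library other than CCl4 replicate 1 was left out and 22 without that one. With library size scaling 39 rose, and the fall was called neither there nor without any of the 5 other libraries. The spliceosome subunit Sf3b3 rose by 0.99 ± 0.16 (adjusted p = 0.002). Chromatin proteins of the high mobility group rose in 3 of 9 cases, with Hmgb2 at 3.70, 8.92 and 6.63 CPM against 0.26, 0.226 and 0.487 CPM (4.23 ± 0.62, adjusted p = 0.0011) and Hmgn1 at 31.3, 40.6 and 34.0 CPM against 11.7, 18.1 and 15.8 CPM (1.21 ± 0.20, adjusted p = 0.0023). Cytosolic ribosomal protein genes rose in 6 of 65 cases, in 10 without CCl4 replicate 1, in 2 without any other library and in 35 with library size scaling, with a median of 0.35. None of 48 proteasome genes passed in edgeR with trimmed-mean scaling, in DESeq2 or in limma-voom, and 5 had an unadjusted p under 0.05 in edgeR. There were 6 rises without CCl4 replicate 1, 9 with library size scaling and 2 with upper quartile scaling, and the median was 0.05. Vars, the valyl-tRNA synthetase, stood out among 23 synthetases, at 77.6, 90.5 and 95.4 CPM against 26.8, 38.2 and 35.3 CPM (1.39 ± 0.17, adjusted p = 0.00039), and 2 rose and 1 fell in that list. With library size scaling 10 rose and none fell, and the fall was lost without any library other than CCl4 replicate 1.

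Among the largest changes outside the lists, Mtmr11, a myotubularin relative of phosphoinositide phosphatases that lacks activity (ENSMUSG00000045934, chromosome 3, 96162004 to 96171718, plus strand), was at 19.6, 22.1 and 20.2 CPM against 0.521, 0.904 and 0.731 CPM (4.78 ± 0.33, adjusted p = 3.6e-05). Car1, a carbonic anhydrase of red cells and gut (ENSMUSG00000027556, chromosome 3, 14766216 to 14808368, minus strand), had no read in the CCl4 libraries and 12.8, 5.88 and 12.2 CPM with olive oil, 125 reads in all, and was at least 62.6-fold lower against a floor of 3 counts over the group. Red cell markers moved with it, at 160 to 271 CPM in sum against 471 to 556 CPM, with 5 of 6 tested fallen, and their part in the fall of Car1 was not tested. Npr2, the receptor of C-type natriuretic peptide, fell from 107, 81.2 and 111 CPM to 17.6, 5.53 and 5.13 CPM (-3.46 ± 0.50, adjusted p = 0.0053). The exostosin family gene Extl1 fell from 8.33, 20.6 and 8.04 CPM to 0.87, 0.88 and 1.49 CPM (-3.49 ± 0.50, adjusted p = 0.001). For Npr2 CCl4 replicate 1 was the highest injured liver, and for Extl1 olive oil replicate 2 was the highest control, with no overlap for either. Lrit2, which encodes a leucine-rich repeat membrane protein, was near the floor with CCl4, at 0.435, 0.628 and 0.663 CPM against 11.97, 9.04 and 13.4 CPM (-4.23 ± 0.41, adjusted p = 0.00014). Rgs16, a brake on G protein signals that varies with feeding and clock time in liver, was at 4.78, 1.51 and 0.994 CPM against 66.9, 15.1 and 56.8 CPM (-4.35 ± 0.82, adjusted p = 0.018). Its call ended in limma-voom, with no filter and without CCl4 replicates 2 or 3 (adjusted p up to 0.095). On the rising side, Neurl1b, a ubiquitin ligase of Notch ligands, was at 8.48, 31.7 and 18.6 CPM against 1.56, 0.226 and 0.975 CPM (4.43 ± 0.66, adjusted p = 0.0023, and 0.063 in limma-voom). Pdk4, the kinase that shuts pyruvate dehydrogenase in fasting, belongs to the carbohydrate list above, where it had the highest change. It was at 37.4, 25.8 and 8.94 CPM against 2.34, 0.226 and 1.46 CPM (4.17 ± 0.76, adjusted p = 0.009) and lost its call in limma-voom and without olive oil replicate 3 (adjusted p up to 0.13). Dhrs9, a short-chain dehydrogenase that can oxidise retinol and steroids, was at 3.91, 22.6 and 19.7 CPM against 0.521, 1.13 and 1.46 CPM (3.87 ± 0.74, adjusted p = 0.0084, and 0.17 in limma-voom), with CCl4 replicate 1 lowest. Ly6d, a surface antigen of the Ly6 family, was highest in CCl4 replicate 1, at 47.6, 11.1 and 10.6 CPM against 0, 1.36 and 0.487 CPM (adjusted p = 0.021), and its call ended in limma-voom and without any olive oil library (adjusted p up to 0.15).

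Many noncoding transcripts fell. Of 10926 protein-coding genes tested 1265 rose and 1224 fell, of 115 lincRNAs 3 rose and 26 fell, and of 73 antisense transcripts 3 rose and 20 fell. The difference between these shares was not tested. Gm31583, a lincRNA (ENSMUSG00000115919, chromosome 16, 24085083 to 24090089, minus strand), went from 96.8, 53.1 and 60.9 CPM to 7.18, 7.67 and 9.28 CPM (-3.12 ± 0.25, adjusted p = 5.3e-05). Hnf4aos, antisense to Hnf4a, fell from 11.5, 5.20 and 12.2 CPM to 0.435, 0.754 and 0.663 CPM (-3.86 ± 0.51, adjusted p = 0.00065) while Hnf4a overlapped between groups, as given above, in a count that used strand. Tbx3os1, antisense to the factor gene Tbx3, was at 0, 0.377 and 0.828 CPM against 14.1, 18.8 and 18.8 CPM (-5.26 ± 0.51, adjusted p = 0.00014). Malat1, an abundant nuclear RNA, fell from 347, 421 and 330.2 CPM to 146, 139 and 185 CPM (-1.23 ± 0.19, adjusted p = 0.0013), and the snoRNA host gene Snhg1 rose from 6.51, 3.84 and 4.39 CPM to 13.5, 17.0 and 19.7 CPM (1.77 ± 0.29, adjusted p = 0.002).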

How the data were processed

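The authors deposited raw read counts per gene for each library, made with featureCounts 1.6.2 over the exons of Ensembl release 95 genes on GRCm38, counting on the reverse strand and leaving out reads that fit several places, per the file headers. Alignment with STAR 2.5.1 is named in the submitters' processing notes. Since multi-mapping reads were left out, close paralogs (tubulins, Ces3b, Ifi27l2b, Saa1, Gstp3, Ly6d, class I genes) and the shared exons of Ugt1a1 are uncertain. Symbols came from GENCODE M21, which matched 54809 of 54838 gene IDs.

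From the counts of the 3 CCl4 and 3 olive oil libraries, genes were filtered with edgeR's filterByExpr (minimum count 10), scaled by trimmed mean of M values and tested with edgeR 4.0.16's robust quasi-likelihood F test in R 4.3.3, with Benjamini-Hochberg adjustment over all genes tested and a threshold of 0.05. Standard errors were derived from each fold change and its F statistic. The labels state no covariate, and none was used. A ratio for a gene with few reads in a group comes from summed counts with an exact 95% interval, which covers counting error only. The scripts were tested on simulated data. DESeq2 1.42.0, limma-voom 3.58.1, other scalings and filters, other thresholds and leaving out each library were the alternatives.

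The gene lists and the members named were chosen with earlier results of these data known. The rule named, per list, the 3 called members with the smallest p and the members behind small counts, the 15 largest risen and fallen genes outside the division, lipid and zonation lists with a mean of at least 5 CPM, and a panel given by sample. Not all of these are described, some results are not reported here, and genes named outside the rule were chosen after their values were seen. The partial hepatectomy samples were not used.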

Additional observations from a re-analysis of the deposited data

How the results depend on the processing

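No paired analysis was possible because the labels of the CCl4 and olive oil samples share no replicate number that ties a sample of one group to one of the other. With library size scaling 26.2% of the genes tested rose and 3.73% fell, among them all 1279 rises and 420 of the 1320 falls called with trimmed-mean scaling. An adjusted p under 0.01 left 5.35% risen and 5.74% fallen, and a log2 change of at least 1 left 7.62% and 5.27%. Leaving out each library in turn gave 5.98% to 14.3% risen and 6.67% to 15.6% fallen genes, lowest without olive oil replicate 3 and highest without CCl4 replicate 1. The sign of the log2 change turned under an alternative for 9 named genes, none of which passed with all libraries. With library size scaling the change was 0.34 for Hnf4a, 0.003 for Pygl and 0.38 for Tuba4a, and in limma-voom it was -0.67 for Mat1a. Over the omissions of 1 library it ran from -0.070 to 0.65 for C1qa, from -0.15 to 0.19 for Dnajc3, from -0.23 to 0.034 for Hnf4a and from -0.21 to 0.064 for Tuba4a. It ran from -0.036 to 3.72 for Lcn2, from -1.99 to 0.82 for Mat1a, from -2.57 to 3.96 for Mt1 and from -3.57 to 4.49 for Mt2, each lowest without CCl4 replicate 1. The causes were not tested. Of 3572 values of named genes under alternatives 3279 kept direction and call, 256 lost and 23 gained the call. With 3 libraries per group and 4295169 to 6218526 counts each, changes of 2-fold or less may have been missed. Some of that size were called, since 864 of the 1279 rises and 597 of the 1320 falls had a log2 change of at least 1. In the simulated data, where genes were changed at random, the test called 2 of 67 genes changed 1.5-fold. It called 23 of 67 changed 2-fold and 60 of 66 changed 4-fold. The simulation gave 91 calls among 10448 genes tested, far fewer than the 1279 rises and 1320 falls in the livers. With fewer calls the adjustment of p is stricter, so these shares do not measure the power of the liver comparison. A gene that did not pass is not shown to be unchanged.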
